A study of Mus musculus with 2 samples.

Results

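The genes described here encode the heat shock proteins and their DnaJ partners. They were taken by symbol, as every gene of the deposited feature list whose symbol begins with Hspa, Hspb, Hspd, Hspe, Hsph, Hsp90, Dnaja, Dnajb or Dnajc, with pseudogenes left out, and 75 of 32285 genes met that rule. By family these are 13 HSP70 genes, 1 HSP110 gene, 3 HSP90 genes, 3 genes of the HSP60 and HSP10 family, 10 genes with Hspb symbols, and 4 DNAJA, 13 DNAJB and 28 DNAJC genes. The Hspb symbols hold true small heat shock proteins and also Hspbp1, Hspbap1 and Hspb11, which share the prefix but not the fold. No measured value chose the members.

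Heat shock proteins are chaperones, which hold, fold, refold or hand on other proteins. HSP70 proteins bind short exposed stretches of unfolded chains and let them go in a cycle driven by ATP, DnaJ (HSP40) proteins bring the chains and start that cycle, HSP110 proteins reset it, and HSP90 proteins finish the folding of kinases, steroid receptors and other clients. Each compartment has its own set, with Hspa5 and Hsp90b1 in the endoplasmic reticulum and Hspa9, Hspd1 and Hspe1 in the mitochondrion. A subset, with Hspa1a and Hspa1b at its head, is switched on within minutes by heat, oxidants or enzymatic handling of tissue through heat shock factor 1, which binds repeats of the letters GAA, called heat shock elements, in the promoters of its target genes.

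The study asked how knockdown of Zeb1, a transcription factor of epithelial-mesenchymal transition, changes the immune setting of pancreatic tumours under chemotherapy. KPC cells, a mouse line from pancreatic tumours of animals with a Pdx-1-Cre transgene, received by lentivirus either a control vector (KPC-shV) or a Zeb1 hairpin (KPC-shZEB1), were selected with drug and were injected into the pancreas of immunocompetent mice. Both groups were treated with gemcitabine, which the study's text says and the labels do not. From each group 1 tumour was dissociated and sequenced by single-cell RNA sequencing. Mice of the C57BL/6J, BALB/c and NSG strains were used at 4 to 6 weeks of age, and which strain carried the sequenced tumours is not given in the sources used here. Only the injected cells carry the vector or the hairpin, so every other cell in the tumour is of the host. Tumour pieces were kept cold and then digested in collagenase and DNase at body temperature before a short trypsin step. With 1 library per group there is no replicate: mouse, tumour, digestion, library and hairpin cannot be told apart, no test was made, and every interval below is a 95% interval for counting error only.

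The library labelled KPC-shV held 12594 barcodes and the KPC-shZEB1-labelled library held 13271, with 130941086 and 143461224 unique molecular identifiers (UMIs). After filters on genes, UMIs, mitochondrial share and doublets, 11398 and 12104 cells remained, with a median of 3720 and 4252 UMIs. Barcode sequences were shared by 36 cells kept in both libraries. The cells fell into 27 clusters that no member gene helped to form, and 9 classes named by their markers were compared: tumour-like, fibroblast-like, endothelial-like, granulocyte-like, monocyte-macrophage-like, dendritic-like, B-like, T-like and NK-like cells. Each named cluster had 3 to 12 of its class's markers detected. The fewest, 3, were in the Prg4-led tumour-like cluster, whose marker score was 0.134 for tumour-like and 0.122 for fibroblast-like cells. Granulocyte-like cells, 6863 and 4270 in number, were the largest class in both libraries. UMIs of the hairpin's target, Zeb1, were not lower in the KPC-shZEB1-labelled library. In tumour-like cells Zeb1 was at 167 CPM in the KPC-shV-labelled library and at 190 CPM in the KPC-shZEB1-labelled library. The ratio was 1.14 (1.10 to 1.18). The study gives its own measure of Zeb1 knockdown in KPC cells and Zeb1 staining of tumours. The UMIs may include unspliced RNA, and the knockdown itself was not tested here. Acinar markers summed to between 48.5 and 79.6 CPM in the classes of the KPC-shV-labelled library and to between 299.9 and 609 CPM in those of the KPC-shZEB1-labelled library.

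A level below is the sum of a gene's UMIs over the cells of a class in a library, scaled to 1000000 UMIs in that class (CPM). Pairs of levels are given with KPC-shV first, and ratios divide the KPC-shZEB1 level by the KPC-shV level. A gene entered a class with at least 100 UMIs over both libraries, and a ratio of at least 1.5, or of at most 1 over 1.5, is called past the fold. Of the 75 members, 68 had at least 100 UMIs over the 9 classes, 33 entered in every class and 10 entered in none. These 10 are Hspa1l, Hspb3, Hspb9, Dnajb3, Dnajb7, Dnajb8, Dnajb13, Dnajc5b, Dnajc5g and Dnajc28. UMIs are counted at the 3′ end of transcripts and carry no length scale, so levels are compared between classes and libraries and never between genes.

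Promoters were read for the members because the heat-inducible and the endoplasmic reticulum genes are known by the letters in theirs. RefSeq windows of 300 bases, 250 of them before the start of transcription (build GRCm38.p6), were found for 60 of the 75 members. Among the members without a window were Hsp90aa1, Hsp90ab1, Hspa8, Hspa9, Hspa13, Hspb2, Dnajc2, Dnajc5, Dnajc5b, Dnajc11, Dnajc12, Dnajc18, Dnajc22 and Dnajc30. The first pair of sequences is shown because both genes lie next to each other and respond to heat, yet differed between the libraries by different amounts. Hspa1a lies at chr17:34969190-34972156 and Hspa1b at chr17:34956436-34959238, both on the minus strand. Each sequence is the 130 bases before the start, with a heat shock element of 2 units, GAANNTTC or its reverse complement, in capitals.
Hspa1a, chr17:34972157-34972286, minus strand: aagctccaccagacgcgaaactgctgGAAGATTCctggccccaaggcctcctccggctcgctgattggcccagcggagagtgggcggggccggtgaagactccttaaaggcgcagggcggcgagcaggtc
Hspa1b, chr17:34959239-34959368, minus strand: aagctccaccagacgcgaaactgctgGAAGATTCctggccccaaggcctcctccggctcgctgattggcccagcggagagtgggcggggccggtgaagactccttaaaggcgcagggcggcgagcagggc
Of the 130 printed bases 129 are the same, and over the 250 bases before the start 247 are (98.8%). The transcripts themselves share 49.3% of the 90-base windows of Hspa1a and 52.3% of those of Hspa1b, but none of the windows in their last 500 bases, where 3′ reads fall, so their UMIs can be told apart there.

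The second pair shows a stronger heat shock element and the element of the endoplasmic reticulum stress response. Hspd1 and Hspe1, which encode the mitochondrial chaperonin and its lid in that order, are transcribed away from each other on chromosome 1 and share the stretch shown. Its capitals are overlapping matches to the heat shock element of 3 units, GAANNTTCNNGAA or TTCNNGAANNTTC. Hspa5 encodes BiP, the HSP70 protein of the endoplasmic reticulum, and its capitals are the fixed letters of CCAAT, 9 free bases and CCACG.
Hspe1, chr1:55088053-55088082, plus strand: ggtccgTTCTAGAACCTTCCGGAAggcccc
Hspa5, chr2:34772020-34772049, plus strand: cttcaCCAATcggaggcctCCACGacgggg
The element of 3 units was found in the windows of 4 of 60 members, Hspd1, Hspe1, Hsph1 and Dnajb6, and in those of 0.662% of 27025 genes. The element of 2 units, which the longer one contains, was found for 16 of 60 members and for 17.0% of all genes. Among the heat-inducible members with a window it was found for 6 of 7, all but Dnajb1. The endoplasmic reticulum stress element was found for Hspa5, Hsp90b1 and Dnajc3, 3 of 60 members, and for 0.137% of all genes. Both strands were searched, and a match is a description of the letters only.

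The members together took 1.30% of the UMIs of tumour-like cells in the KPC-shV-labelled library and 1.32% in the KPC-shZEB1-labelled library. Their share was 1.34% and 1.36% in fibroblast-like cells and 1.26% and 1.4999% in endothelial-like cells. It was lowest in granulocyte-like cells, at 0.541% and 0.590%. The other 5 classes lay between, from 0.704% in B-like cells of the KPC-shV-labelled library to 0.961% in T-like cells of the KPC-shZEB1-labelled library. In each of the 9 classes the share was higher in the KPC-shZEB1-labelled library. In NK-like cells the shares were 0.878% and 0.881%, and the interval of their ratio, 0.979 to 1.03, held 1. The members summed to 12960 and 13241 CPM in tumour-like cells, of which 2082 and 2777 CPM were Hsp90ab1. In endothelial-like cells they summed to 12639 and 14999 CPM, of which Hsp90ab1 was 1975 and 2843 CPM.

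**Figure D1:**
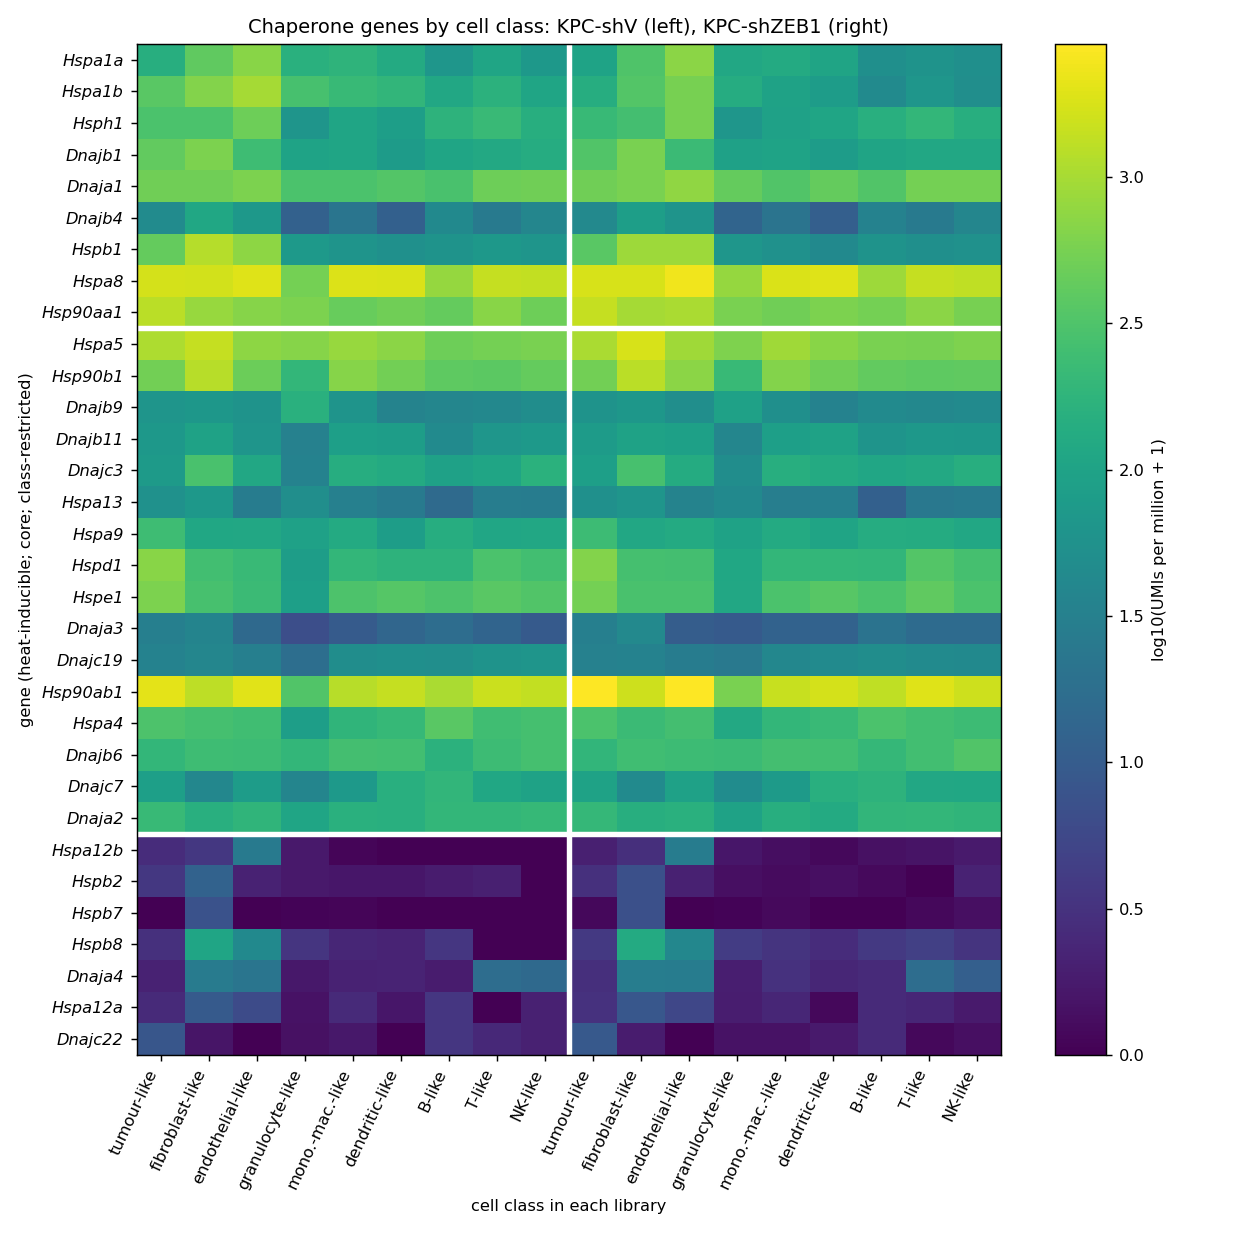
Levels of 32 members as log10 of UMIs per 1000000 plus 1 (colour), with the 9 cell classes of the KPC-shV-labelled library on the left and those of the KPC-shZEB1-labelled library on the right. Rows are the heat-inducible, the core and the class-restricted members, and most rows have the same bright and dark classes in both libraries.

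Of the 9 heat-inducible members, 8 stood highest in fibroblast-like or endothelial-like cells in each library, and Hsp90aa1 stood highest in tumour-like cells. Endothelial-like cells had the highest level of Hspa1a, Hspa1b, Hsph1 (the HSP110 protein that resets HSP70), Hspa8 (the constantly made HSP70) and Dnaja1 (its HSP40 partner) in both libraries, together with Hspa12b, an HSP70 relative known from endothelium, and Dnajc18. These are 7 of the 68 members with enough UMIs, where 8.42% of all genes so measured were highest in that class. For Hspa1a the endothelial-like level was 693 (662 to 725) and 712 (674 to 752) CPM, next came fibroblast-like cells at 411 and 313 CPM, and tumour-like cells had 144 and 99.8 CPM. Hspa1b followed the same order, with 969 and 552 CPM in endothelial-like, 653 and 336 CPM in fibroblast-like and 368 and 142 CPM in tumour-like cells. NK-like cells had the lowest Hspa1b level in the KPC-shV-labelled library, 107 CPM, and B-like cells in the KPC-shZEB1-labelled library, 43.7 CPM.

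Fibroblast-like cells were highest for 14 members in both libraries, where 10.8% of genes were highest there. They include the endoplasmic reticulum genes Hspa5, Hsp90b1 (GRP94), Dnajc3, Dnajb11 and Hspa13, the heat-inducible Dnajb1 and Dnajb4, and the small heat shock proteins Hspb2, Hspb7 and Hspb8, known from muscle. Hspa5 reached 1432 (1410 to 1455) and 1762 (1737 to 1788) CPM in fibroblast-like cells and 1056 and 1025 CPM in tumour-like cells. Dnajc3, an HSP40 of the endoplasmic reticulum, had 289 and 284 CPM in fibroblast-like cells and 74.4 and 87.3 CPM in tumour-like cells. Hspb1 (HSP25), a small heat shock protein that binds actin and unfolded chains, was at 1181 and 884 CPM in fibroblast-like cells, 737 and 886 CPM in endothelial-like cells and 429 and 375 CPM in tumour-like cells. In the 6 other classes Hspb1 was between 70.2 CPM and 42.6 CPM. The top 2 classes of Hspb1 changed places between libraries, since the levels in fibroblast-like and endothelial-like cells of the KPC-shZEB1-labelled library were 884 and 886 CPM.

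Tumour-like cells were highest for 14 members as well, where 17.8% of genes were highest there. Most encode mitochondrial or cytosolic folding proteins: Hspd1 at 681 (672 to 689.7) and 649 (641 to 658) CPM, Hspe1 at 595 (587 to 603) and 541 (533 to 549) CPM and Hspa9 (mortalin), the HSP70 that pulls proteins into the mitochondrion, at 237 (232 to 242) and 229.7 (225 to 235) CPM. The next class for Hspd1 was T-like cells, at 299 and 334 CPM. Hsp90aa1, the inducible cytosolic HSP90, was highest in tumour-like cells at 1231 and 1433 CPM. Granulocyte-like cells were highest for 2 members, where 7.95% of genes were highest there: Hspa4l, an HSP110 relative, at 373 (365 to 381) and 369 (358 to 379) CPM and Dnajb9 (ERdj4), a partner of BiP, at 153 (148 to 158) and 93.0 (87.9 to 98.3) CPM. They were the lowest class for Hspd1, Hspe1 and Hsp90ab1 in both libraries. The other classes led for few members: monocyte-macrophage-like cells for 2, dendritic-like for 3, B-like for 4, T-like for 3 and NK-like cells for 2, where 4.34%, 4.44%, 9.98%, 4.25% and 4.05% of genes led. Dnajc15 was highest in NK-like cells (229 and 207 CPM), Dnajc9, a histone chaperone, in T-like cells (58.5 and 62.7 CPM) and Dnajc7, a partner of HSP70 and HSP90, in B-like cells (188 and 169.8 CPM).

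Few members were restricted to a class. In 7 of 68 the same class was highest in both libraries with at least 5 times the level of the median class in each, where 27.8% of all genes met that measure. Hspb1 and Dnajc6 passed 5 times the median class in both libraries as well, but their highest class differed between the libraries. Hspa12b reached 25.01 (19.4 to 31.8) and 27.6 (20.5 to 36.4) CPM in endothelial-like cells and at most 2.65 CPM elsewhere. Fibroblast-like cells held Hspb8 at 105 (98.7 to 111) and 129.6 (123 to 137) CPM, Hspb2 at 11.4 and 6.05 CPM, Hspb7 at 6.50 and 6.05 CPM, Dnaja4 at 26.1 and 27.8 CPM and Hspa12a at 8.42 and 7.72 CPM. Endothelial-like cells also had Hspb8, at 42.2 and 39.2 CPM, and Dnaja4, at 20.9 and 27.6 CPM. Dnajc22 had 7.33 and 8.08 CPM in tumour-like cells and at most 2.56 CPM in the other classes.

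Between the libraries the members moved little as a group, and 1 gene stood out. Hspa1b was lower in the KPC-shZEB1-labelled library past the fold in all 9 classes, in tumour-like cells and in every other class alike. Over all members and classes, 17 pairs of member and class were past the fold higher and 16 lower, and 9 of the 16 were Hspa1b. Of the 33 members that entered in every class Hspa1b was the 1 with a ratio below 1 in all 9, where 3.19% of 4452 genes were. Of those genes, 0.0898% were also lower past the fold in all 9: Hspa1b, and outside the members S100a8, S100a9 and Cxcl3, named after their values were seen.

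**Figure D2:**
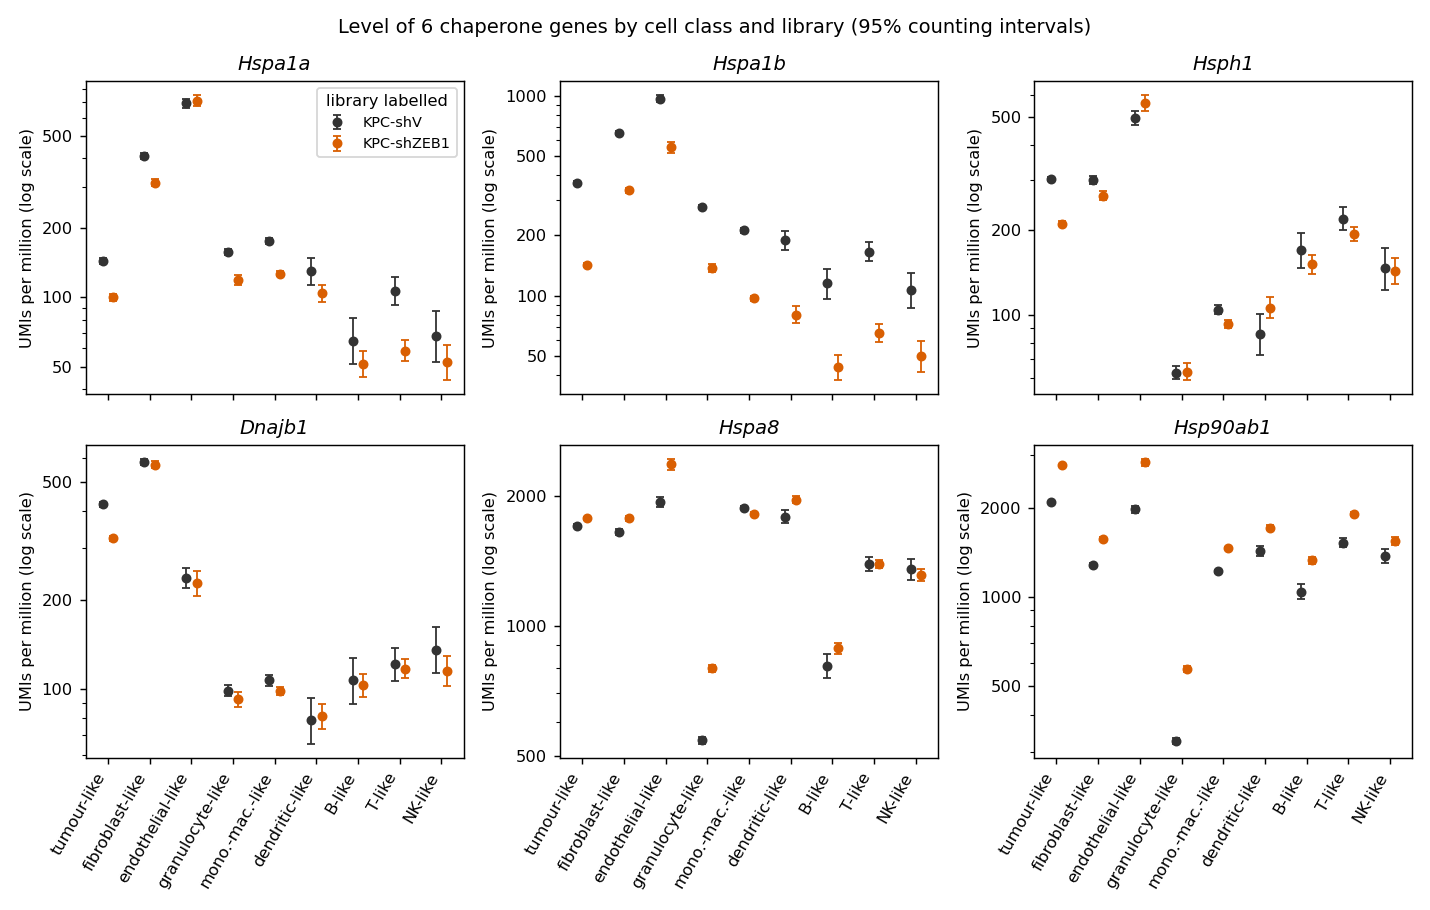
Level in UMIs per 1000000 of the class (log scale) of 6 chaperone genes in 9 cell classes, for the KPC-shV-labelled (dark) and KPC-shZEB1-labelled (orange) libraries, with bars for the 95% counting interval. Hspa1b is lower and Hsp90ab1 higher in the KPC-shZEB1-labelled library in all 9 classes, while Dnajb1 and Hspa8 lie close together in most.

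In tumour-like cells Hspa1b was at 368 (362 to 375) and 142 (138 to 146) CPM, a ratio of 0.386, 0.374 to 0.399. The ratio was 0.515, 0.495 to 0.536 in fibroblast-like cells and 0.569, 0.529 to 0.613 in endothelial-like cells. Both stromal classes therefore kept the highest levels in each library while standing lower in the second. Granulocyte-like cells had 277 and 137 CPM (ratio 0.494, 0.468 to 0.520). Monocyte-macrophage-like cells had 213 and 96.8 CPM (ratio 0.455, 0.436 to 0.475), and dendritic-like cells had 189 and 80.4 CPM (ratio 0.425, 0.366 to 0.495). The lymphoid classes had the lowest levels and ratios of the same size. B-like cells had 115 and 43.7 CPM (ratio 0.379, 0.303 to 0.476), T-like cells 166 and 65.2 CPM (ratio 0.393, 0.339 to 0.456) and NK-like cells 107 and 49.8 CPM (ratio 0.467, 0.357 to 0.614). In the KPC-shV-labelled library the 5 cells with the most held 57.1% of the Hspa1a and Hspa1b UMIs of T-like cells. The same share was 54.3% in NK-like, 42.6% in dendritic-like, 33.2% in B-like and 3.60% in tumour-like cells. In the KPC-shZEB1-labelled library the shares were 29.1%, 29.4%, 21.8%, 18.6% and 4.46% in the same order. The counting intervals take no account of such cells.

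Hspa1a, the neighbour with a near-identical promoter, was lower in 8 of 9 classes but by less. It had 144 (139.7 to 148) and 99.8 (96.5 to 103) CPM in tumour-like cells (ratio 0.695, 0.665 to 0.726) and 411 and 313 CPM in fibroblast-like cells (ratio 0.762, 0.729 to 0.797). Of the 9 class ratios, that of T-like cells passed the fold, 0.550, 0.463 to 0.656. With each cluster given the same weight in both libraries, an alternative added after seeing the data, tumour-like cells passed it too, at 0.624, and granulocyte-like cells went from 0.755 to 1.11. Single clusters went further: the Ugt2b34-led and Prg4-led tumour-like clusters had ratios of 0.613 and 0.615 and the Chil3-led macrophage-like cluster 0.573. In endothelial-like cells the levels, 693 and 712 CPM, differed by less than their counting error (ratio 1.03, 0.956 to 1.10). The interval also held 1 in B-like and NK-like cells, where the ratios were 0.791, 0.608 to 1.04 and 0.769, 0.566 to 1.05. Hspa1b made up 71.9% (71.3 to 72.6) of the pair's UMIs in tumour-like cells of the KPC-shV-labelled library and 58.8% (57.7 to 59.8) in the KPC-shZEB1-labelled library. That share was lower in the second library in all 9 classes. For the pair summed, the ratio ran from 0.455 in T-like cells to 0.760 in endothelial-like cells.

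None of the 7 other heat-inducible members was lower past the fold in any class. Dnajb1 and Hspb1 were each below 1 in 8 of 9 classes, Dnajb4 in 7 of the 8 in which it entered and Hsph1 in 6 of 9, each by less than Hspa1b. The interval lay below 1 in tumour-like and monocyte-macrophage-like cells for Dnajb1 and in tumour-like and fibroblast-like cells for Dnajb4. For Hspb1 and Hsph1 it lay below 1 in tumour-like, fibroblast-like, monocyte-macrophage-like and T-like cells. In the other classes with a ratio below 1 the interval held 1. Dnajb1 (HSP40), the main partner of the inducible HSP70 proteins, had 419.5 (413 to 426) and 323 (317 to 329) CPM in tumour-like cells (ratio 0.770, 0.751 to 0.789) and 583 and 571 CPM in fibroblast-like cells (ratio 0.980, 0.946 to 1.02). Hsph1 had 303 (297 to 309) and 211 (206 to 216) CPM in tumour-like cells (ratio 0.696, 0.676 to 0.718), and was higher in endothelial-like cells, with 497 and 562 CPM (ratio 1.13, 1.04 to 1.23). Hspb1 was lower in fibroblast-like cells at 1181 and 884 CPM (ratio 0.748, 0.729 to 0.768) and higher in endothelial-like cells (ratio 1.20, 1.13 to 1.29). Dnajb4 was lower in fibroblast-like cells as well, at 115 and 85.5 CPM (ratio 0.747, 0.685 to 0.814). Dnaja1, in contrast, was above 1 in 8 of 9 classes, up to 1.43 in granulocyte-like cells, with tumour-like cells at 0.983, 0.962 to 1.00. Hspa8 was above 1 in 7 classes, and its ratio was 1.22, 1.17 to 1.27 in endothelial-like and 1.47, 1.43 to 1.51 in granulocyte-like cells. In tumour-like cells 7 of the 9 heat-inducible members were below 1, where 45.5% of all genes were, with a median log2 ratio of −0.19 beside 0.03 over all genes that entered. In endothelial-like cells 6 of 9 were above 1, where 54.9% of all genes were, with a median of 0.18 beside 0.04. The 9 genes summed had ratios between 0.925 in fibroblast-like and 1.12 in endothelial-like cells.

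Immediate early genes, which are known to rise during enzymatic dissociation, were examined as a list of 18. In tumour-like cells 16 of them were below 1, where 45.5% of all genes were, with Btg2 at 937 and 544 CPM, Ier2 at 605 and 401 CPM and Socs3 at 238 and 152 CPM past the fold. Fos, the best known of them, was at 2490 and 2283 CPM there. All 18 were below 1 in fibroblast-like cells, 15 in endothelial-like and in monocyte-macrophage-like cells, 13 in dendritic-like and T-like cells and 11 in granulocyte-like and B-like cells. Of all genes that entered, 55.1% were below 1 in fibroblast-like, 45.1% in endothelial-like, 43.3% in monocyte-macrophage-like, 48.9% in dendritic-like, 44.4% in T-like, 24.7% in granulocyte-like and 46.1% in B-like cells. In NK-like cells 7 of 18 were below 1, where 46.0% of all genes were, with a median log2 ratio of 0.06, while Hspa1b there had a ratio of 0.467. The part of handling in the Hspa1b difference was not tested.

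Free RNA from granulocytes was gauged with S100a8, a granulocyte gene. Other classes held 3.10% to 5.64% of its granulocyte-like level in the KPC-shV-labelled library and 2.03% to 2.92% in the KPC-shZEB1-labelled library. At those shares granulocyte-like Hspa1b would add 8.60 to 15.6 CPM and 2.78 to 3.99 CPM to another class. The measured levels of the other classes were 107 to 969 CPM and 43.7 to 552 CPM. Free RNA from classes other than granulocyte-like cells was not gauged. Barcodes left out for too few UMIs had Hspa1b at 485 and 148 CPM. The part of free RNA in the Hspa1b difference was not tested.

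**Figure D3:**
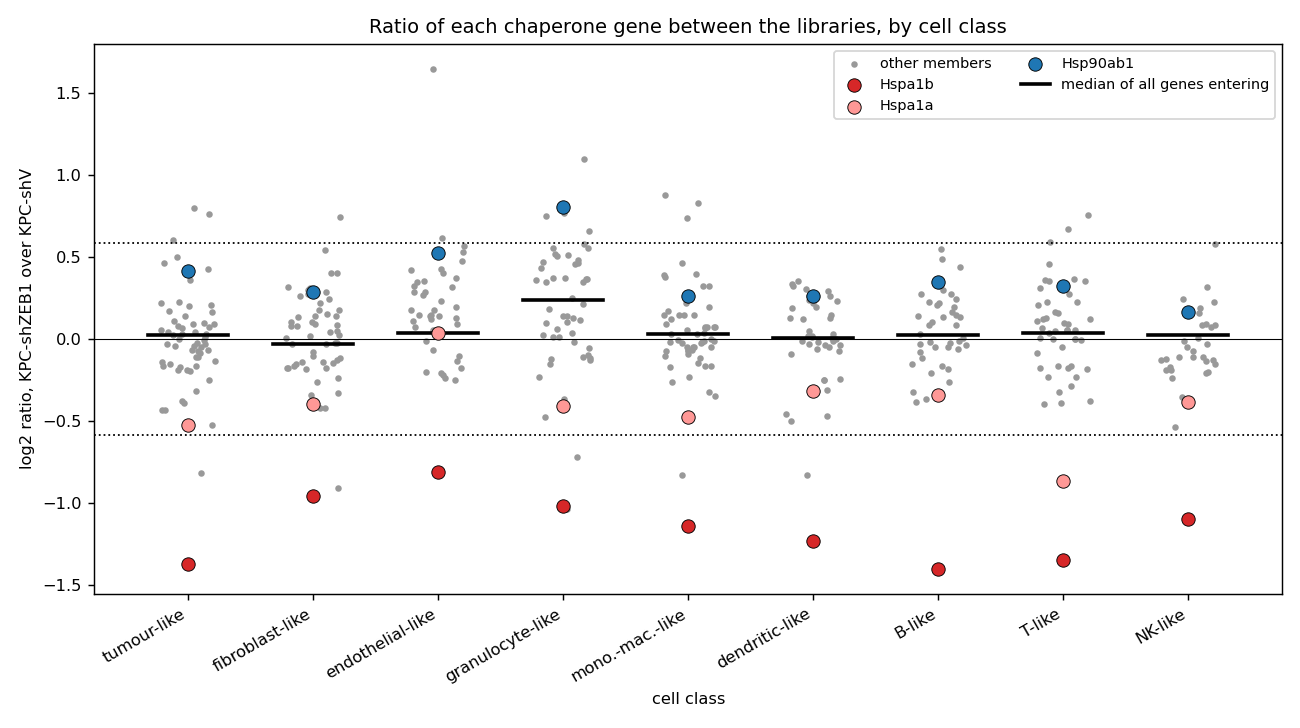
Log2 ratio of the KPC-shZEB1-labelled library over the KPC-shV-labelled library for each member that entered a class (points), with the median of all genes that entered as a black bar and dotted lines at 1.5-fold. Hspa1b lies under the lower line in all 9 classes, and most other members lie between the lines.

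The share of cells with an Hspa1a or Hspa1b UMI moved the same way as the levels. In tumour-like cells it was 80.9% (78.9 to 82.9) in the KPC-shV-labelled library and 75.4% (73.1 to 77.6) in the KPC-shZEB1-labelled library, at median depths of 23673 and 23808 UMIs. Thinned to 1000 UMIs a cell, with no cell left out, the shares were 29.5% (27.2 to 31.9) and 17.9% (15.9 to 19.96). Endothelial-like cells had the highest thinned shares, 61.8% and 52.4%, and fibroblast-like cells had 55.4% and 42.2%. The lowest were in NK-like cells of the KPC-shV-labelled library, 11.7%, and in B-like cells of the KPC-shZEB1-labelled library, 7.18%. No class is known to lack these genes, so no share can be set aside as background. In granulocyte-like cells the thinned shares were 13.3% (12.6 to 14.2) and 10.4% (9.498 to 11.4).

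Within granulocyte-like cells the inducible HSP70 message was held by a minority. The tenth of cells with the most held 86.7% of the Hspa1a and Hspa1b UMIs in the KPC-shV-labelled library and 84.0% in the KPC-shZEB1-labelled library, beside 47.5% and 49.0% in tumour-like and 28.5% and 32.6% in fibroblast-like cells. That share was 82.2% and 75.0% in T-like, 71.1% and 71.5% in B-like and 68.5% and 64.5% in NK-like cells. It was 64.4% and 63.4% in dendritic-like, 59.9% and 63.8% in monocyte-macrophage-like and 38.6% and 36.3% in endothelial-like cells. Median depths were 3147 and 2915 UMIs in granulocyte-like, 3734 and 3417.5 in B-like and 23673 and 23808 in tumour-like cells. The part of depth in these shares was not tested. Granulocyte-like cells with an Hspa1a or Hspa1b UMI, after thinning, had more Hsph1, Hsp90aa1, Dnaja1, Hspa8 and Dnajb1 than those without. For Hspb1 and Dnajb4 the intervals held 1 in both libraries, with Hspb1 at 0.859 (0.640 to 1.13) and 1.27 (0.866 to 1.82). Their Hsph1 level was 198 beside 46.6 CPM in the KPC-shV-labelled library, 4.24 times (3.50 to 5.13), and 207 beside 45.5 CPM in the KPC-shZEB1-labelled library, 4.56 times (3.50 to 5.90). For Hsp90aa1 the same ratios were 3.30 (3.10 to 3.52) and 3.06 (2.79 to 3.35), and for Dnaja1 2.87 (2.62 to 3.15) and 2.23 (1.98 to 2.50). Hspa5 stood at 1.08 (0.995 to 1.18) and 1.12 (0.993 to 1.27). Of the 4 immediate early genes examined there, Jun was higher in the same cells, at 1.93 (1.79 to 2.08) and 2.20 (1.95 to 2.47). Fos was at 1.10 (1.01 to 1.19) and 0.902 (0.816 to 0.995), Egr1 at 0.915 (0.864 to 0.968) and 0.855 (0.776 to 0.940), and Dusp1 was lower, at 0.763 (0.730 to 0.797) and 0.638 (0.590 to 0.690). In tumour-like cells the Hsph1 ratios were 1.88 (1.54 to 2.29) and 1.58 (1.19 to 2.09). A granulocyte-like cluster led by Ccdc126 carried 74.5% and 53.4% of the class's Hspa1a UMIs and 72.0% and 60.9% of its Hspa1b UMIs. Its Hsp90aa1 level was 987 and 1184 CPM, beside 277 and 324 CPM in the Rdh12-led and 482 and 566 CPM in the Abca13-led cluster. The granulocyte-like ratios therefore mix clusters, and whether they hold within single clusters was not tested.

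Clusters within the classes showed the same direction for Hspa1b. Of the 19 clusters with at least 20 cells in each library, all 19 had a ratio below 1, and the interval lay below 1 in 18, the exception being the small Cpb2-led granulocyte-like cluster at 0.673 (0.230 to 1.63). The ratios ran from 0.281 to 0.926 with a median of 0.455. Among tumour-like clusters the Ugt2b34-led cluster, with Krt20, had 406 and 155 CPM, the Prg4-led cluster 330.2 and 103 CPM and the S100a14-led cluster 255 and 119 CPM. A Ralyl-led cluster, nearly confined to the KPC-shZEB1-labelled library with 9 and 233 cells, had 461 and 146 CPM. Macrophage-like cells led by Fcna, Lyve1 and Folr2 had the smallest difference of their class, 287 and 188 CPM, where the Chil3-led cluster had 251 and 92.3 CPM and the Mmp12-expressing cluster led by H2-M2 had 153 and 65.9 CPM.

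**Figure D4:**
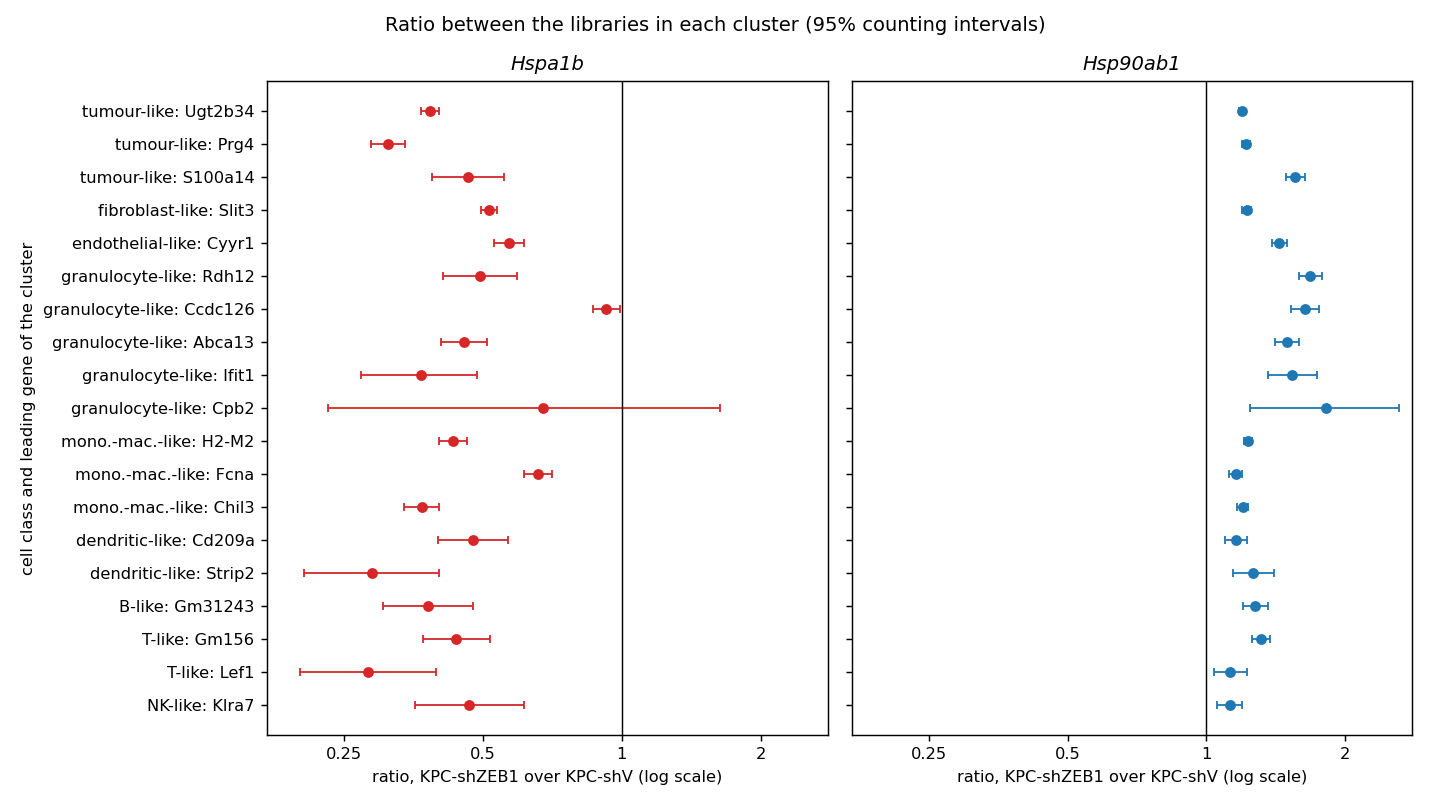
Ratio of the KPC-shZEB1-labelled library over the KPC-shV-labelled library (log scale) for Hspa1b and Hsp90ab1 in the 19 clusters with at least 20 cells in each library, named by class and leading gene, with 95% counting intervals. All 19 Hspa1b points lie below 1, the nearest at 0.926, and all 19 Hsp90ab1 points above it.

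Granulocyte-like cells differed from that pattern in 1 large cluster. The cluster led by Ccdc126 held 40.2% of granulocyte-like cells in the KPC-shV-labelled library (2758 cells) and 18.1% in the KPC-shZEB1-labelled library (772 cells), and it carried 72.0% and 60.9% of the class's Hspa1b UMIs. Within it Hspa1b was at 535 and 496 CPM, a ratio of 0.926 (0.867 to 0.989), and Hspa1a at 314 and 376 CPM, a ratio of 1.20 (1.11 to 1.30). Hsph1 in the same cells was at 93.5 and 137 CPM, a ratio of 1.46 (1.28 to 1.67). The Rdh12-led cluster, with Cxcr2, had Hspa1b at 64.3 and 31.7 CPM (ratio 0.493), the Abca13-led cluster, with Siglecf, at 207 and 94.1 CPM (ratio 0.455) and the interferon-responsive Ifit1-led cluster at 181 and 66.4 CPM (ratio 0.366). With each cluster given the same weight in both libraries, the granulocyte-like Hspa1b ratio was 0.751 and that of Hspa1a was 1.11, so part of the class difference went with the share of cells in the Ccdc126-led cluster. Dnajb9 showed the same layout: that cluster carried 62.3% and 35.5% of its granulocyte-like UMIs, at 256 and 196 CPM, and with equal weights the class ratio was 0.784 in place of 0.608.

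**Figure D5:**
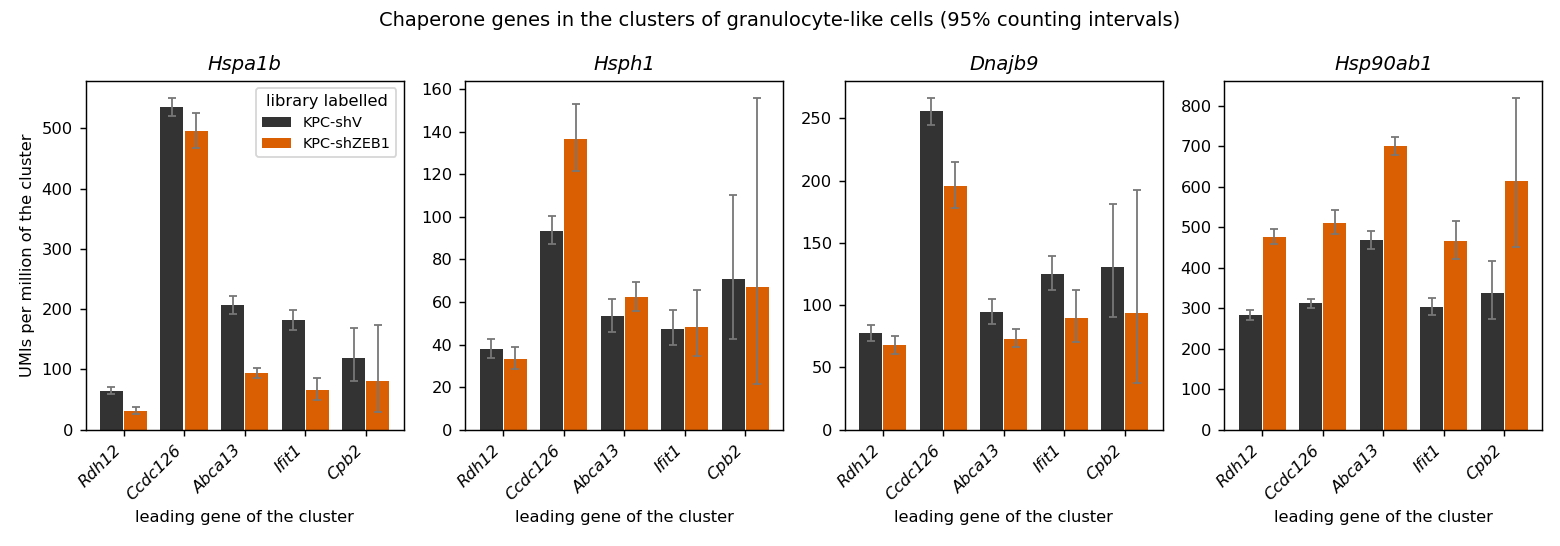
Level in UMIs per 1000000 of the cluster for 4 members in the 5 clusters of granulocyte-like cells, by library, with 95% counting intervals. The Ccdc126-led cluster is the highest for Hspa1b and Dnajb9 in both libraries, and Hsp90ab1 is higher in the KPC-shZEB1-labelled library in each cluster.

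The cytosolic HSP90 genes went the other way from Hspa1b. Hsp90ab1, the constantly made HSP90, was higher in the KPC-shZEB1-labelled library in all 9 classes and in all 19 clusters, each with an interval above 1. Of the genes that entered in every class, 7.1% had a ratio above 1 in all 9, and so had 3 of 33 members: Hsp90ab1, Dnajc9 and Dnajc21, a ribosome-assembly partner. In tumour-like cells Hsp90ab1 was at 2082 (2067 to 2097) and 2777 (2759 to 2795) CPM, a ratio of 1.33, 1.32 to 1.35. With equal cluster weights, over clusters with at least 20 cells in each library, that ratio was 1.22. The Ralyl-led cluster held 0.794% and 27.6% of the Hsp90ab1 UMIs of tumour-like cells. Fibroblast-like cells had 1283 and 1569 CPM (ratio 1.22, 1.20 to 1.251) and endothelial-like cells 1975 and 2843 CPM (ratio 1.44, 1.39 to 1.496). The difference passed the fold in granulocyte-like cells, at 327 and 571 CPM (ratio 1.75, 1.69 to 1.81), a class in which 19.7% of all genes were past the fold higher. There the same cluster weights left a ratio of 1.60. The lowest ratio was in NK-like cells, 1.12, 1.05 to 1.20. Cluster ratios ran from 1.12 to 1.81.

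Hsp90aa1 was above 1 in 8 of 9 classes, from 1.04 in T-like to 1.53 in endothelial-like cells, and at 0.963, 0.936 to 0.990 in granulocyte-like cells, where it was 1.17 with equal cluster weights. In endothelial-like cells it passed the fold at 675 and 1036 CPM, 1 of 2 members higher there with Dnajc9, where 5.6% of all genes were. The co-chaperones that work with HSP90 and HSP70 were a fixed list of 25. In tumour-like cells 15 of the 24 that entered were above 1, where 54.5% of all genes were, and none was past the fold, and Bag3, an inducible partner of HSP70, was at 110 and 80.3 CPM (ratio 0.730). In granulocyte-like cells 20 of 24 were above 1, where 75.3% of all genes were, with a median log2 ratio of 0.23 beside 0.24 over all genes. Chordc1 (12.9 and 24.2 CPM), Fkbp4 (18.04 and 31.0 CPM) and Fkbp5 (23.9 and 38.3 CPM), all HSP90 partners, passed the fold there, 3 of 24 where 19.7% of all genes did. In endothelial-like cells 14 of 17 were above 1, where 54.9% of all genes were. The 8 subunits of the cytosolic chaperonin, which folds actin and tubulin, were above 1 in 7 of 8 cases in tumour-like and fibroblast-like cells, in 8 of 8 in endothelial-like and granulocyte-like cells and in 2 of 8 in NK-like cells. The share of all genes above 1 was 44.9% in fibroblast-like and 54.0% in NK-like cells. In granulocyte-like cells Tcp1, Cct5 and Cct6a were past the fold, and Cct6a had 33.0 and 54.1 CPM.

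Endoplasmic reticulum members differed from class to class, and none of the 6 on the list was past the fold in tumour-like, fibroblast-like or endothelial-like cells. Hspa5 had 1056 and 1025 CPM in tumour-like cells (ratio 0.970, 0.956 to 0.985), 1432 and 1762 CPM in fibroblast-like cells (ratio 1.23, 1.20 to 1.26) and 743 and 928 CPM in endothelial-like cells (ratio 1.249, 1.17 to 1.33). Hsp90b1 was at 482 (456 to 509) and 715 (677 to 755) CPM in endothelial-like cells, a ratio of 1.48, 1.37 to 1.60, and at 1.01, 0.990 to 1.03 in tumour-like cells. Dnajb11 (ERdj3), a partner of BiP, had 62.0 and 89.5 CPM in endothelial-like cells (ratio 1.44, 1.16 to 1.80), and ratios of 1.15, 1.09 to 1.22 in tumour-like and 1.02, 0.932 to 1.11 in fibroblast-like cells. Dnajc3 likewise had a higher ratio in tumour-like cells, 1.17, 1.11 to 1.24, than in fibroblast-like cells, 0.982, 0.934 to 1.03. The 3 members with the stress element in their promoter, Hspa5, Hsp90b1 and Dnajc3, did not share 1 pattern: Dnajc3 was higher in granulocyte-like cells at 33.4 and 47.6 CPM (ratio 1.43, 1.28 to 1.59), where Hspa5 had a ratio of 0.919, 0.894 to 0.944, and of 1.07 with equal cluster weights. Dnajb9 was past the fold lower in granulocyte-like cells, at 153 and 93.0 CPM (ratio 0.608, 0.569 to 0.649), 1 of 3 members lower there with Hspa1b and Dnajc6, where 2.47% of all genes were. Hspa13, a short HSP70 of microsomes, was at 0.853, 0.770 to 0.944 in the same cells.

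Of 21 other genes of the endoplasmic reticulum stress response, 10 were above 1 and 11 below in tumour-like cells, none past the fold. Of all genes that entered, 54.5% were above 1 in tumour-like, 54.9% in endothelial-like and 75.3% in granulocyte-like cells. In endothelial-like cells 14 of the 18 that entered were above 1, with Calr, a chaperone of glycoproteins, at 368 and 602 CPM (ratio 1.64) and Creld2 past the fold. In granulocyte-like cells 11 were above and 10 below, a smaller share above 1 than among all genes. There Ero1l, a hypoxia-induced oxidase that forms disulfides, was at 956 and 439 CPM (ratio 0.459) and Ddit3 (CHOP) at 131 and 96.3 CPM (ratio 0.733), while Pdia4 was at 9.99 and 18.2 CPM (ratio 1.82).

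Hspd1, Hspe1 and Hspa9 had their highest levels in tumour-like cells and ratios close to 1 there. Hspd1 had a ratio of 0.954, 0.936 to 0.971, Hspe1 of 0.909, 0.891 to 0.927 and Hspa9 of 0.968, 0.939 to 0.999. With equal cluster weights the Hspd1 ratio was 1.02. Hspd1 and Hspe1 were higher in granulocyte-like cells, Hspd1 at 83.1 and 114 CPM (ratio 1.38, 1.29 to 1.47) and Hspe1 at 89.3 and 116 CPM (ratio 1.30, 1.21 to 1.39), while the Hspa9 ratio there was 1.05, 0.975 to 1.12, an interval that held 1. Dnajc19, a part of the import motor, was higher in granulocyte-like cells (16.9 and 24.0 CPM, ratio 1.42, 1.22 to 1.65) and lower in NK-like cells (62.5 and 43.2 CPM, ratio 0.691, 0.499 to 0.967). Dnajc15, its relative, had a ratio of 1.38, 1.29 to 1.48 in tumour-like cells, at 41.7 and 57.6 CPM. It had 22.5 and 35.5 CPM in granulocyte-like cells (ratio 1.58, 1.39 to 1.79) and 152 and 121 CPM in T-like cells (ratio 0.799, 0.698 to 0.916). The T-like ratio was 1.19 with each library clustered alone and 1.12 with clusters at resolution 0.5. In tumour-like cells 2 of 62 members were lower past the fold, where 3.03% of all genes were, and Hspa1b was 1 of them.

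The remaining members past the fold were mostly of low level. In tumour-like cells 3 of 62 members were higher, where 8.67% of all genes were: Dnajc9 at 15.8 (14.5 to 17.2) and 26.9 (25.2 to 28.7) CPM (ratio 1.70, 1.53 to 1.89), Dnajc4 at 7.71 and 11.7 CPM (ratio 1.52, 1.30 to 1.78) and Dnaja4 at 1.12 and 1.95 CPM (ratio 1.74, 1.16 to 2.66). Without the clusters that came nearly all from 1 library, the ratio of both Dnajc9 and Dnajc4 there was 1.39. Dnajc9 had its highest ratio in endothelial-like cells, 3.13, 2.06 to 4.86, at 12.7 and 39.8 CPM in 123 and 82 cells. In granulocyte-like cells 5 of 52 members were higher, fewer than the background share of 19.7%. Beside Hsp90ab1, Dnajc15 and Dnajc4 these were Hspbp1, a nucleotide exchange factor of HSP70, at 2.89 and 6.18 CPM (ratio 2.14, 1.53 to 3.00) and Dnajc2, a ribosome-bound DnaJ protein, at 26.6 and 45.4 CPM (ratio 1.71, 1.52 to 1.91). The median log2 ratio of the members in that class was 0.16 beside 0.24 over all genes. Dnajc6 (auxilin), which strips clathrin coats, was lower there at 5.87 and 2.86 CPM (ratio 0.488, 0.331 to 0.704), and Dnajc5, a chaperone of synaptic and secretory vesicles, was at 182 and 131 CPM (ratio 0.720, 0.680 to 0.761).

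In fibroblast-like cells 1 of 57 members was higher past the fold, Hspbp1 at 5.95 and 9.96 CPM, where 4.56% of all genes were, and its ratio of 1.67 was 1.46 as a mean over each cell's CPM. Beside Hspa1b, Hspb2 was lower there at 11.4 and 6.05 CPM (ratio 0.533, 0.388 to 0.725), 2 of 57 where 3.71% of all genes were, and its ratio was 0.824 when each library was clustered alone. In monocyte-macrophage-like cells Dnajb5, Hspb8 and Dnaja4 were higher, each under 4 CPM, 3 of 58 members where 6.08% of all genes were. There 2 of 58 were lower, Hspa1b among them, where 1.2% of all genes were. T-like cells had 3 of 49 members higher, Hspbp1, Dnajb12 and Dnajc18, where 4.9% of all genes were, and 2 lower, Hspa1a and Hspa1b, where 2.04% were. In dendritic-like cells Dnajc12 was lower at 23.3 and 13.1 CPM (ratio 0.563, 0.373 to 0.862) and no member was higher, where 3.25% of genes were lower and 5.41% higher. B-like and NK-like cells had no member higher, where 6.77% and 5.26% of genes were, and Hspa1b alone lower, where 1.59% and 2.05% were. In endothelial-like cells Hspa1b was the 1 member of 43 that was lower, where 3.55% of genes were.

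The remaining cytosolic members of the core list, beside Hsp90ab1, ranged as follows. Dnaja2 had ratios between 0.842 and 1.00, Dnajb6, which holds back aggregation, between 0.953 and 1.21, and Dnajc7 between 0.901 and 1.29. Hspa4, the HSP110 relative that resets cytosolic HSP70, was at 85.7 and 119 CPM in granulocyte-like cells (ratio 1.39, 1.30 to 1.48) and at 374 and 299 CPM in B-like cells (ratio 0.799, 0.716 to 0.892). Over all members that entered, the median log2 ratio was −0.01 in tumour-like, 0.02 in fibroblast-like, 0.15 in endothelial-like and −0.11 in NK-like cells, beside 0.03, −0.03, 0.04 and 0.03 over all genes that entered. Of the members that entered, 29 of 62 were above 1 in tumour-like cells, where 54.5% of all genes were, and 31 of 57 in fibroblast-like cells, where 44.9% were. The counts were 32 of 43 in endothelial-like cells beside 54.9% of all genes and 37 of 52 in granulocyte-like cells beside 75.3%. They were 29 of 58 in monocyte-macrophage-like cells beside 56.7%, 24 of 44 in dendritic-like cells beside 51.1% and 23 of 43 in B-like cells beside 53.9%. In T-like cells 32 of 49 members were above 1 beside 55.6% of all genes, and in NK-like cells 12 of 34 beside 54.0%.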

How the data were processed

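Tumour tissue was sequenced by 10x Chromium 3′ single-cell RNA sequencing, 1 library per group. The deposited matrices hold raw UMI counts. The authors obtained them with Cell Ranger 7.0.1 on mm10, limited to barcodes called as cells. Whether intron reads were counted is not given in the sources used here. If they were, unspliced RNA adds to each level.

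The study's own limits were used for cells: 500 genes or more, between 1000 and 60000 UMIs, and no more than 15% mitochondrial UMIs. Scrublet in scanpy 1.11.5 removed 315 (2.69%) and 343 (2.76%) cells with a score above 0.2. Clustering used 3000 variable genes without the members, the listed partner genes and the mitochondrial genes, 30 components, 20 neighbours and leidenalg 0.10.2 at resolution 1. A cluster took the class with the best markers, each in at least 10% of its cells and at 3 times the median cluster's CPM, with at least 3 detected. It stayed unnamed where another class led or with fewer than 50 cells, a limit set after the names were seen. All names are therefore rebuilt and differ from the study's. The 5 unnamed clusters and the 52 acinar-like cells were left out of the comparisons.

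Depth per library was 101201508 and 118943000 UMIs over the kept cells. Levels have exact Poisson and shares exact Clopper-Pearson 95% intervals, and ratios have exact intervals conditional on the summed counts. Log2 ratios added 1 CPM. Genes were named if heat-inducible or core, past the fold in a class, or restricted to a class. Values of 1 member, which is in the counts, are not reported here. The members and lists were chosen with earlier results of these data known. The ratios were tested on simulated counts that held counting error only. The alternatives changed the UMI minimum, fold, scaling, denominator, cell filters, doublets and clustering. The script ran in Python 3.11.15 with numpy 2.4.6 and scipy 1.17.1.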

Additional observations from a re-analysis of the deposited data

Results flagged for a closer look

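For 4 members the ratio between the KPC-shZEB1-labelled and the KPC-shV-labelled library lay past a ratio of 5 to 4 in opposite directions in at least a pair of cell classes, with both intervals clear of 1. With 1 library per group the difference between classes was not tested in any of them. Hspa14, a ribosome-bound HSP70, had a ratio of 1.34 (1.00 to 1.78) in endothelial-like cells, on 104 and 94 UMIs, and of 0.709 (0.571 to 0.885) in dendritic-like cells. Dnajc19, of the mitochondrial import motor, stood at 1.42 (1.22 to 1.65) in granulocyte-like and at 0.691 (0.499 to 0.967) in NK-like cells. Hspa4 stood at 1.39 (1.30 to 1.48) in granulocyte-like and at 0.799 (0.716 to 0.892) in B-like cells, and Dnajc15 at 1.58 (1.39 to 1.79) in granulocyte-like and at 0.799 (0.698 to 0.916) in T-like cells, where it was 1.19 with each library clustered alone and 1.12 with clusters at resolution 0.5. These are 4 of 60 members (6.67%) that entered in 2 or more classes, where 9.89% of 12672 genes met the same measure. In 3 of the 4 the higher class was granulocyte-like cells, in which 19.7% of all genes were past 1.5-fold higher.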

How the results depend on the processing

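Hspa1b stayed past the fold lower in 9 classes under every alternative but 2. With a minimum of 300 UMIs it was 8, since 1 class fell under the minimum, and with clusters given the same weight in both libraries, chosen after seeing the data, it was 8, with granulocyte-like cells at 0.751. Hsp90ab1 stayed above 1 in 9 classes under all 14 alternatives. The pairs of member and class past the fold higher, 17 as reported, were 34 with a minimum of 30 UMIs, 6 with 300, 55 with 1 UMI in each library, 2 at 2-fold and 74 at a smaller fold. Those lower, 16 as reported, were 10 with 300 UMIs, 44 with 1 UMI in each library, 8 at 2-fold and 46 at the same smaller fold, and these counts move by construction. The median log2 ratio of the members in NK-like cells, −0.11 as reported, was 0.0048 with each library clustered alone and 0.00048 with clusters at resolution 0.5; the cause was not tested. The share of tumour-like cells with an Hspa1a or Hspa1b UMI was 29.5% and 17.9% thinned to 1000 UMIs, and 48.1% and 28.1% thinned to 2000. Single calls lost were Dnajb12 and Hspbp1 in T-like and Hspb2 in fibroblast-like cells with libraries clustered alone, Hspbp1 (1.46) and Hspb2 in fibroblast-like and Dnajb12 and Hspbp1 in T-like cells with the mean over each cell's CPM, Dnajb12 in T-like cells without shared barcodes (1.49), Dnajc15 in granulocyte-like cells relative to the median ratio (1.487), and Dnajc4 and Dnajc9 in tumour-like cells without clusters mostly of 1 library or with equal cluster weights. With equal cluster weights Dnajb9, Dnajc2, Dnajc4, Dnajc6 and Dnajc15 in granulocyte-like cells were lost as well, at 0.784, 1.38, 1.37, 0.829 and 1.28. No alternative put a ratio past the fold on the other side of 1. Of 113 ratios of named members under the fold with an interval clear of 1, 10 changed side under at least 1 alternative: with equal cluster weights Hspa1a (0.755 to 1.11), Hsp90aa1 and Hspa5 in granulocyte-like and Hspa5 and Hspd1 in tumour-like cells, the last also, with Dnajb6, without clusters mostly of 1 library, with the mean over cells Hsp90aa1 in NK-like and Hspd1 and Hspe1 in T-like cells, and with other clusterings Dnajc15 in T-like cells (0.799 to 1.19 and 1.12). No paired analysis was possible because each group has 1 library, and for the same reason no library could be left out. Depth limits the small classes: in counts simulated with counting error only, 1.64% of unchanged genes in NK-like cells lay past the fold, beside 0.229% in tumour-like cells. These counts held no variation between cells, mice or libraries, so the percentages are not rates for the measured libraries.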

Other observations

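Barcodes outside the compared classes held the same genes at levels that differed in the same direction. Hspa1b was at 367 and 158 CPM in the barcodes with more than 60000 UMIs (289 and 217 barcodes, the KPC-shV-labelled library first) and Hsp90ab1 at 2498 and 2990 CPM. In those with fewer than 1000 UMIs Hspa1b was at 485 (413 to 565) and 148 (109 to 195) CPM. In barcodes with more than 15% mitochondrial UMIs it was at 251 (201 to 310) and 66.2 (45.01 to 94.0) CPM, and in doublets at 310 (291 to 329) and 128 (118 to 138) CPM. These values rest on 31 or more UMIs each and come from the same 2 libraries.

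Unnamed clusters gave 2 further values. A cluster led by Rgs5, a pericyte gene, with 14 and 10 cells, had Hspa1b at 832 (722 to 953) and 533 (431 to 650) CPM and Hspa1a at 747 (644 to 863) and 577 (471 to 699) CPM. A cluster led by Il17a, with 44 and 98 cells, had Hspa1b at 119 (80.1 to 170) and 66.9 (46.8 to 92.6) CPM and Hsp90ab1 at 1077 (953 to 1213) and 1534 (1431 to 1643) CPM.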
